A study of Mus musculus with 3 samples.

Results

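The genes described here encode 10 transcription factors that mark naive, stem-like and early T cells: Tcf7, Lef1, Sox4, Foxo1, Foxp1, Bach2, Bcl6, Id3, Myb and Satb1. They were chosen by name, and all 10 were present among the 25638 gene names of the deposited count table, 16331 of them with any count. RNA-seq was performed on CD8+ T cells sorted from mouse spleen in 3 groups of 1 library each, namely effector memory cells, central memory cells and naive cells. The labels call all 3 groups wild type and untreated, and do not say whether any of the mice carried a rearranged T cell receptor transgene. The strain and age of the mice, the number of animals behind each library and the surface markers used for the sort were not stated in the labels.

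With 1 library per group no difference had a replicate check and no test between groups was possible, so each comparison is between single libraries. The libraries held 33087462 counts for effector memory, 35846315 for central memory and 26876909 for naive. Levels are CPM, that is counts scaled to library size after TMM (trimmed mean of M values) adjustment. A count of 0 allowed up to 0.0938 CPM in effector memory, 0.0837 CPM in central memory and 0.108 CPM in naive (3 counts each). These are rounded 1-sided 95% limits, slightly below the upper ends of the 2-sided Poisson intervals used for levels. A gene was called higher or lower where the ratio between 2 libraries was at least 2, its 95% counting interval excluded 1 and the higher library had at least 5 CPM. The intervals and limits cover counting error only, not the spread between mice. In bulk RNA a smaller share of cells that express a gene and less of its RNA per cell cannot be told apart.

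The T cell markers Cd3e and Lck were present in every library, Cd3e at 335 CPM in effector memory, 418 CPM in central memory and 395 CPM in naive. In the list of 10 CD8 T cell markers, only Cd8a and Cd8b1 encode CD8 itself, and the others are shared with other T cells. Of the 10, 3 were called lower in effector memory against naive, namely Cd8a 4.57-fold, Cd8b1 3.83-fold and Cd5 2.70-fold. The 7 that were not called are all of the shared kind. Cd8a, which encodes a chain of the CD8 coreceptor, stood at 408 CPM in effector memory, 1063 CPM in central memory and 1868 CPM in naive. None of the 10 was called in central memory against naive, and Cd8a and Cd5 were called lower in effector against central memory. Of the 6 CD4 T cell markers, Cd4 itself was below 3 CPM in every library, but Zbtb7b, a factor of the CD4 lineage, stood at 93.6 CPM in effector memory, 37.4 CPM in central memory and 1.33 CPM in naive. Ctla4, which activated T cells of both lineages express, ran in the same order, at 308, 81.7 and 8.73 CPM. The other CD4 T cell markers did not run in that order. Cxcr5 had no count in effector memory, 15.4 CPM in central memory and 3.38 CPM in naive. Foxp3 stood at 0.156 CPM in effector memory, 1.70 CPM in central memory and 3.95 CPM in naive, and Cd40lg at 0.281, 0.363 and 0.323 CPM. Other features also differed between the libraries. The beta chain segment Trbv12-1 made up 98.4% of Trbv counts in effector memory (exact Clopper-Pearson 95% interval 97.98% to 98.7%), 99.6% in central memory (99.57% to 99.7%) and 7.13% in naive (6.73% to 7.55%). Whether the naive and memory cells came from mice of like receptor origin was not stated, so receptor origin and memory label cannot be told apart here. The 15 mitosis genes summed to 6014 CPM in effector memory, 963 CPM in central memory and 28.9 CPM in naive. The 8 B cell markers in the table summed to 2.81 CPM in effector memory, 6.50 CPM in central memory and 36.5 CPM in naive, and Ms4a1 and Ebf1 were among those at 0 in both memory libraries. B cells also express several of the 10 factors. The 7 NK cell markers summed to 87.9 CPM in effector memory, 143 CPM in central memory and 38.7 CPM in naive. Most of that in effector memory and naive was Eomes, a factor that CD8+ T cells also express, at 79.9 CPM in effector memory, 74.4 CPM in central memory and 38.1 CPM in naive. Without Eomes, a split made after the values were seen, the other 6 summed to 8.005 CPM in effector memory, 68.1 CPM in central memory and 0.575 CPM in naive, and Ncr1 had 12.2 CPM in central memory but no count elsewhere. Of the 7 immature thymocyte markers, Rag1, Rag2, Ptcra and Arpp21 had no count in any library. Themis stood at 411 CPM in effector memory, 258 CPM in central memory and 285 CPM in naive. Cd1d1 stood at 9.16, 25.7 and 39.4 CPM and Dntt at 1.13, 0.614 and 3.63 CPM in the same order of libraries. The part of receptor use, cell division, coreceptor level, Zbtb7b, B cell RNA or NK cell RNA in the differences below was not tested.

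TCF-1 (from Tcf7) and LEF-1 are partner DNA-binding proteins of the HMG-box family that keep CD8+ T cells in a naive or self-renewing state, and both can work with beta-catenin and with Groucho-type corepressors (the Tle genes). FOXO1 and FOXP1 are forkhead factors tied to T cell quiescence, and FOXO1 drives the homing and survival genes Klf2 and Il7r. BACH2, BCL-6 and ID3 restrain or oppose effector programs, with BLIMP-1 (Prdm1) and ID2 as their known counterparts, while MYB, SATB1 and SOX4 act early in T cell development and, for MYB, in the maintenance of stem-like memory cells.

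Across the 3 libraries, 8 of the 10 genes were highest in naive, and 2 of them, Id3 and Myb, were highest in central memory. Effector memory was the lowest library for 9 genes, and naive was the lowest for Myb. The summed level of the 10 genes was 521 CPM in effector memory, 2461 CPM in central memory and 3518 CPM in naive. Tcf7 made up 9.89% of that sum in effector memory, 44.3% in central memory and 41.2% in naive, and without it the sums were 469.7, 1370 and 2069 CPM in the same order of libraries. The share of all genes that were highest in naive or lowest in effector memory is not given here, so these orders are description only. Shares over all genes are given below for the calls.

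**Figure D1:**
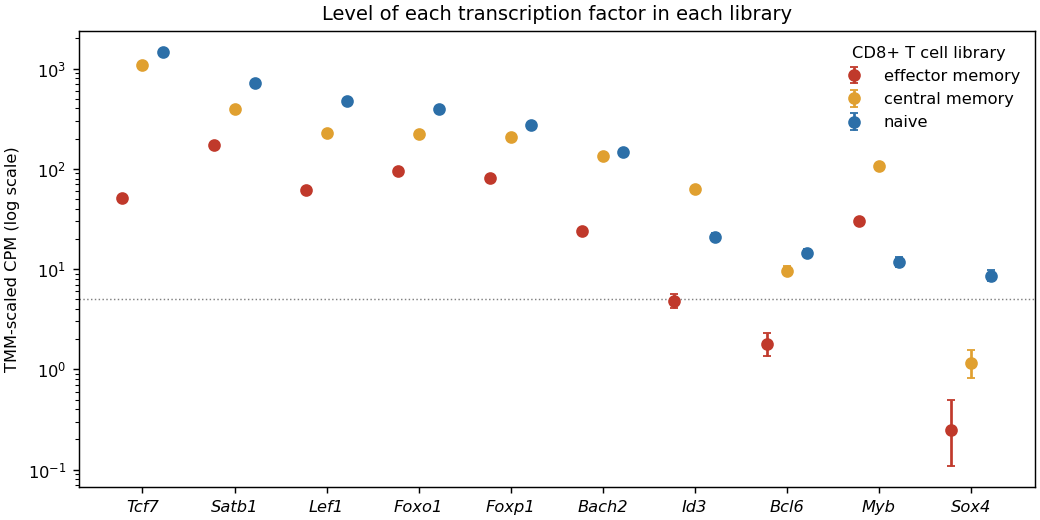
TMM-scaled CPM (log axis) of each transcription factor in the effector memory, central memory and naive libraries, 1 library each. Bars are exact Poisson 95% intervals, most of them smaller than the points, and the dotted line marks 5 CPM; Tcf7 stood at 51.5 CPM in effector memory, 1091 CPM in central memory and 1449 CPM in naive.

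In effector memory against naive, 9 of the 10 genes were called lower, where 15.6% of the 10087 genes that reached 5 CPM in either library were called lower. The remaining gene, Myb, was called higher, as were 22.3% of those genes. Among the 9 genes that averaged 5 CPM or more over the 3 libraries (all but Sox4), the median log2 ratio was -2.13, beside 0.04 for the 9670 genes of the table with that mean. In central memory against naive, 2 genes were called lower (Lef1 and Sox4), where 5.12% of 9737 genes were, and 2 were called higher (Id3 and Myb), where 11.2% were. The other 6 were called in neither direction, although the interval lay below 1 for each of them. The median log2 ratio of the 9 genes was -0.41 there, beside 0.15 over 9668 genes. In effector memory against central memory, 9 genes were called lower, where 12.8% of 9975 genes were, and none was called higher, where 14.8% were. Sox4 was below 5 CPM in both of these libraries and could not be called. The median log2 ratio of the 9 genes was -1.90, beside -0.08 over 9668 genes. The comparisons share libraries, so their counts are not independent of each other.

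**Figure D2:**
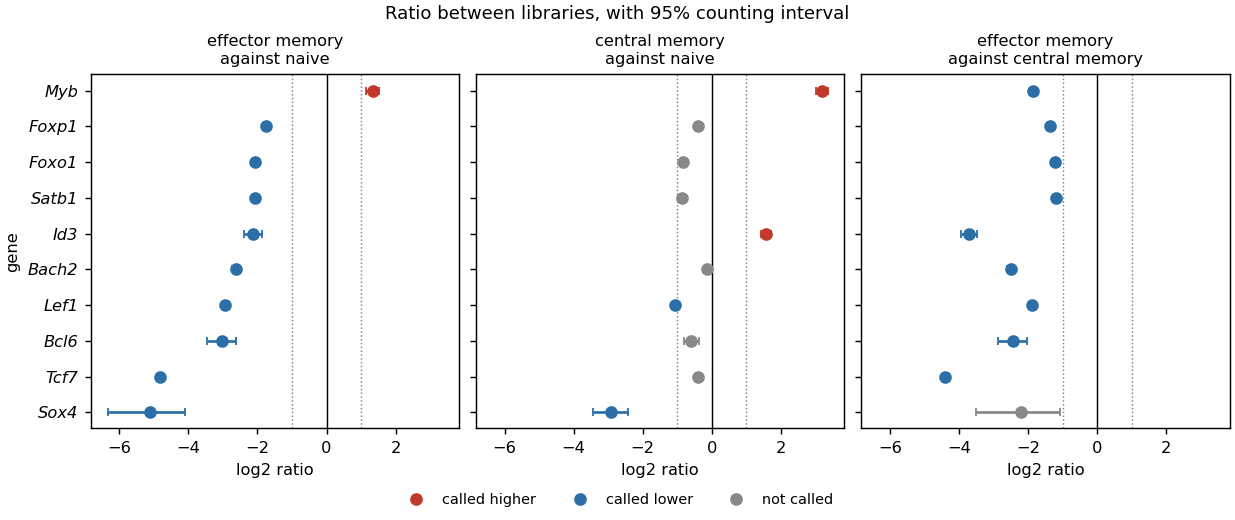
Log2 ratio of each transcription factor for the 2 memory libraries against naive and for effector against central memory, with 95% counting intervals. Dotted lines mark a ratio of 2 in either direction; 9 genes lie left of the lower line in the first panel, against 2 in the second.

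Tcf7 (ENSMUSG00000000782.15, chromosome 11, 52252371 to 52283014; coordinates here are those of GENCODE M21 on GRCm38) had 1648 counts in effector memory, 39093 in central memory and 40322 in naive. Its level in effector memory was far below both other libraries, which lay close to each other. It was 28.1-fold lower in effector memory than in naive (interval 26.8 to 29.6) and 21.2-fold lower than in central memory (20.2 to 22.3). Central memory was 1.33-fold lower than naive (1.31 to 1.35), a difference too small for a call. Of the 9975 genes compared between effector and central memory, 34 had a lower ratio than Tcf7. By CPM, which takes no account of gene length, it was the 51st gene of the naive library and the 83rd of central memory, and the 4328th of effector memory. Per kilobase of merged exons, the scale on which genes can be compared, Tcf7 stood at 19.6 CPM in effector memory, 416 CPM in central memory and 552 CPM in naive, and it was the highest of the 10 genes in all 3 libraries. With lengths of the longest transcript in place of merged exons, Satb1 was the highest in effector memory, at 27.5 CPM per kilobase beside 20.9 for Tcf7.

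Lef1 (ENSMUSG00000027985.14, chromosome 3, 131110471 to 131224356), the partner of Tcf7, stood at 61.1 CPM in effector memory, 227 CPM in central memory and 472 CPM in naive. Its level was stepped, with central memory between the other 2 libraries. Lef1 was 7.74-fold lower in effector memory than in naive (7.38 to 8.12), and 2.08-fold lower in central memory than in naive (2.02 to 2.14), just past the ratio of 2. It was 3.73-fold lower in effector than in central memory (3.55 to 3.92). The ratio of Tcf7 to Lef1 per kilobase was 2.82 in effector memory, 16.1 in central memory and 10.3 in naive, so the pair did not change in step. With lengths of the longest transcript it was 1.25 in effector memory, 7.10 in central memory and 4.54 in naive. The lengths are the same for every library, so the order of the libraries cannot change with them. The 2 relatives Tcf7l1 and Tcf7l2 were below 2 CPM in every library, and Tcf7l2 had no count in either memory library. Sox4 (ENSMUSG00000076431.4, chromosome 13, 28948919 to 28953713), another HMG-box gene, had the fewest counts of the 10 in every library, with 8 in effector memory, 41 in central memory and 240 in naive. Its level of 0.250 CPM in effector memory was 34.5-fold below the 8.63 CPM of naive (17.2 to 80.8), and the 1.14 CPM of central memory was 7.54-fold below naive (5.39 to 10.8). Over 2616 bases its exons lie opposite those of the lincRNA gene Gm26735, and without strand in the counts reads of the 2 genes cannot be told apart. Exons of Lef1, Bach2, Foxo1 and Myb lie opposite antisense genes over 1208, 537, 674 and 559 bases, and the same limit holds there.

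The upstream sequence of Tcf7 is shown because this gene had the largest difference among the well-expressed factors, that of Lef1 because a single window held 2 TCF/LEF matches, and that of Myb because it was the one gene highest in central memory and lowest in naive. Each is a RefSeq window of 300 bases on GRCm38.p6, from 250 bases before to 50 after an annotated start, written 5′ to 3′ on the strand of the gene. Capitals mark matches, on either strand, to the TCF/LEF core CTTTGA, the forkhead core GTAAACA or the E-box letters CAGCTG and CAGGTG.
Tcf7, chr11:52282546-52282845, minus strand: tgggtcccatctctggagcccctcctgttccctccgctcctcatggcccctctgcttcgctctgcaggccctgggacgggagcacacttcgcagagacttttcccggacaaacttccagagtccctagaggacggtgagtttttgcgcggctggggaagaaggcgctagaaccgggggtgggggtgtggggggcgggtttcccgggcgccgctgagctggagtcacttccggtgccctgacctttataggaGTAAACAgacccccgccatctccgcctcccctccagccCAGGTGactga
Lef1, chr3:131156044-131156343, plus strand, an internal start: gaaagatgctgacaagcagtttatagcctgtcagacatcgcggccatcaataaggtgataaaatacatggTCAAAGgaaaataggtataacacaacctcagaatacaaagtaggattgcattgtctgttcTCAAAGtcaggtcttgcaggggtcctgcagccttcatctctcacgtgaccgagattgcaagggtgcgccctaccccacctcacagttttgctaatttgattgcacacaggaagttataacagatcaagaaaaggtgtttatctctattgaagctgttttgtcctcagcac
Myb, chr10:21160935-21161234, minus strand: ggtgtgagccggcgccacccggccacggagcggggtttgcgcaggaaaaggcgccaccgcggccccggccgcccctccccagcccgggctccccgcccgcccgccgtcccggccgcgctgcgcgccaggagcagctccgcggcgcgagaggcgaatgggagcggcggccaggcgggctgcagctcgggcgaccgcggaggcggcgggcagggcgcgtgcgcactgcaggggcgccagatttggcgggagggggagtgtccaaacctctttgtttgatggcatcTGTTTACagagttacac
The Tcf7 window shown is also that of an internal start, and its forkhead letters lie at that start. Another Tcf7 window, over the outermost start of the gene (chr11:52282965-52283264), held no forkhead letters. In Myb the forkhead letters lie shortly after the annotated start. Tcf7 was lower and Myb higher in effector memory than in naive, and a link to these letters was not tested. Both TCF/LEF matches of Lef1 read on the strand opposite to the gene. The 10 genes had 21 such windows, some of which overlap. CTTTGA was in 4 of the 21 (19%), of Lef1, Bach2, Bcl6 and Foxp1, beside 16% of all 32851 windows. GTAAACA was in 2 (9.52%), of Tcf7 and Myb, beside 3.65%. An E-box was in 8 (38.1%), beside 32.9%. A further search for the E2F letters TTTGGCGC, TTTCCCGC or TTCCCGCC found them in 0 of the 21, beside 3.21%. These matches are letters in a window and not measured binding.

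Foxo1 (ENSMUSG00000044167.6, chromosome 3, 52268336 to 52353221) stood at 96.0 CPM in effector memory, 224 CPM in central memory and 399 CPM in naive. It was 4.16-fold lower in effector memory than in naive (3.996 to 4.33) and 2.33-fold lower than in central memory (2.24 to 2.44). In central memory it was 1.78-fold below naive (1.73 to 1.83). Its relative Foxo3 did not follow it, at 125 CPM in effector memory, 188 CPM in central memory and 117 CPM in naive, with no call in any comparison. Per kilobase, Foxo3 was therefore 1.49 times Foxo1 in effector memory, 0.959 times in central memory and 0.336 times in naive, and with longest transcripts its ratio in central memory passed 1, at 1.06. Foxp1 (ENSMUSG00000030067.17, chromosome 6, 98925338 to 99522721), which restrains activation of naive T cells, had the smallest decrease of the 9 genes called lower in effector memory against naive. It stood at 80.6 CPM in effector memory, 208 CPM in central memory and 273 CPM in naive, 3.39-fold lower in effector memory than in naive (3.24 to 3.55) and 1.31-fold lower in central memory than in naive (1.27 to 1.36). Against central memory, Satb1 (2.30-fold) and Foxo1 (2.33-fold) were less reduced in effector memory than Foxp1 (2.58-fold). Foxp4 stood at 35.4 CPM in effector memory, 67.4 CPM in central memory and 60.1 CPM in naive and was not called in any comparison.

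Satb1 (ENSMUSG00000023927.15, chromosome 17, 51736187 to 51833290), a chromatin organiser of thymocytes and T cells, followed nearly the same steps as Foxo1. It stood at 171 CPM in effector memory, 395 CPM in central memory and 720.0 CPM in naive. Satb1 was 4.20-fold lower in effector memory than in naive (4.08 to 4.33), and 1.82-fold lower in central memory than in naive (1.79 to 1.86). Over the 2 log2 ratios against naive, Foxo1 and Satb1 lay 0.04 apart, and each was among the 3 nearest genes of the other out of 7897 genes with at least 20 CPM in a library. Qprt and Trim30a were the other 2 nearest genes for both.

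Bach2 (ENSMUSG00000040270.16, chromosome 4, 32238804 to 32586108), a repressor that limits effector differentiation, was near its naive level in central memory. It had 24.0 CPM in effector memory, 135 CPM in central memory and 148 CPM in naive. The 1.10-fold difference between central memory and naive (1.06 to 1.15) was the smallest of the 10 genes, while effector memory was 6.19-fold below naive (5.73 to 6.70) and 5.62-fold below central memory (5.20 to 6.07). Its relative Bach1 was 2.24-fold lower in effector memory than in naive (2.04 to 2.47). Bcl6 (ENSMUSG00000022508.5, chromosome 16, 23965052 to 23988852), the repressor best known from follicular helper T cells and germinal centre B cells, was a low gene, with 57 counts in effector memory, 346 in central memory and 404 in naive. That gave 1.78 CPM in effector memory, 9.66 CPM in central memory and 14.5 CPM in naive. Bcl6 was 8.15-fold lower in effector memory than in naive (6.16 to 10.9), and 5.42-fold lower in effector than in central memory (4.09 to 7.30). Prdm1, which encodes BLIMP-1 and opposes BCL-6, stood at 55.8 CPM in effector memory, 5.67 CPM in central memory and 1.15 CPM in naive. Per kilobase, the ratio of Prdm1 to Bcl6 was 37.6 in effector memory, 0.705 in central memory and 0.0951 in naive, so Prdm1 exceeded Bcl6 in effector memory only among these libraries. With longest transcripts the ratio was 23.3 in effector memory, 0.437 in central memory and 0.0590 in naive.

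Id3 (ENSMUSG00000007872.3, chromosome 4, 136143497 to 136145755), an inhibitor of E proteins linked to long-lived memory precursors, was higher in central memory than in either other library. It had 153 counts in effector memory, 2230 in central memory and 583 in naive, or 4.78, 62.3 and 21.0 CPM. Id3 was 2.97-fold higher in central memory than in naive (2.71 to 3.26). It was 4.38-fold lower in effector memory than in naive (3.66 to 5.27) and 13.0-fold lower in effector than in central memory (11.0 to 15.4), where 55 of 9975 genes had a lower ratio. Id2, the effector counterpart, stood at 306 CPM in effector memory, 172 CPM in central memory and 120.1 CPM in naive, and was called only in effector memory against naive, 2.55-fold higher (2.45 to 2.65). The ratio of Id2 to Id3 per kilobase was 47.0 in effector memory, 2.03 in central memory and 4.21 in naive. Id2 was above Id3 in all 3 libraries, least so in central memory. Among the E protein genes that Id proteins bind, Tcf3 was 2.13-fold higher in central memory than in naive (2.04 to 2.22), and Tcf12 was not called in any comparison. Tcf4, the scarcest of the 3, stood at 16.8 CPM in effector memory, 4.05 CPM in central memory and 3.56 CPM in naive. It was called higher in effector memory against naive, 4.73-fold (3.81 to 5.92), and against central memory, 4.16-fold (3.45 to 5.03).

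Myb (ENSMUSG00000019982.15, chromosome 10, 21124935 to 21160984) went against the other 9 genes in effector memory against naive. It had 955 counts in effector memory, 3852 in central memory and 329 in naive, or 29.9, 108 and 11.8 CPM. Myb was 9.09-fold higher in central memory than in naive (8.12 to 10.2), and 299 of 9737 genes had a higher ratio. It was 2.53-fold higher in effector memory than in naive (2.23 to 2.87) and 3.60-fold lower in effector than in central memory (3.35 to 3.87). Its relatives followed another order. Mybl2, a cell cycle factor, stood at 111 CPM in effector memory, 18.0 CPM in central memory and 3.05 CPM in naive. Mybl1 stood at 17.0, 3.38 and 0.755 CPM in the same order. It was called higher in effector memory against naive, 22.5-fold (14.6 to 36.7), and against central memory, 5.04-fold (4.13 to 6.18), while central memory and naive were both below 5 CPM. Per kilobase, Myb was thus 0.139 times Mybl2 in effector memory, 3.09 times in central memory and 2.01 times in naive. With longest transcripts these were 0.265 times in effector memory, 5.90 times in central memory and 3.83 times in naive. The 15 mitosis genes were likewise highest in effector memory, unlike Myb. Like Myb, all 15 were called higher in both memory libraries against naive. A link between Myb and cell division was not tested.

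**Figure D3:**
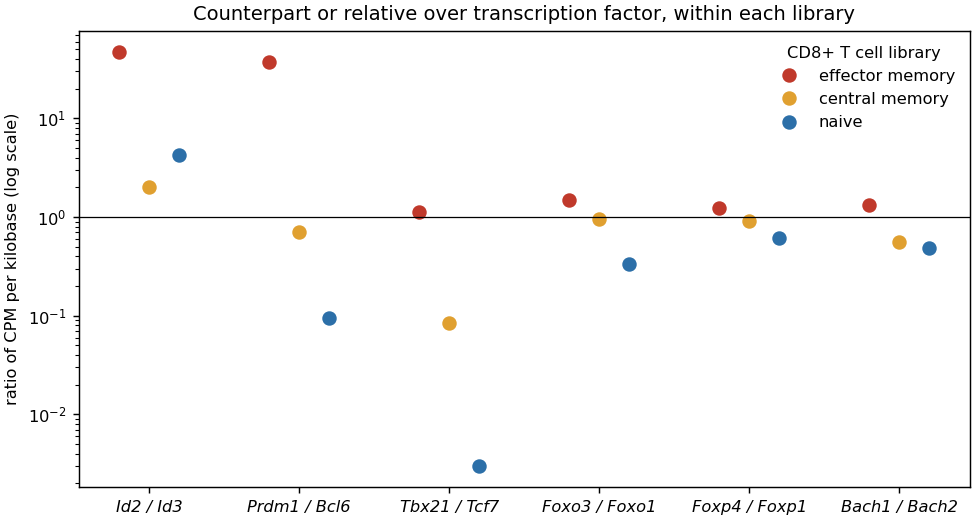
Ratio of CPM per kilobase of merged exons (log axis) between a counterpart or relative and 1 of the 10 factors, in the effector memory, central memory and naive libraries, 1 library each. Id2 over Id3 was 47.0 in effector memory, 2.03 in central memory and 4.21 in naive, and all 6 ratios are highest in effector memory. The length used cannot change the order of the libraries but moves each ratio. With longest transcripts Foxp4 over Foxp1 in effector memory was 0.789 in place of 1.23.

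The place of central memory between naive (0) and effector memory (1) on the log2 scale showed how the genes differed among themselves. Bach2 at 0.05, Tcf7 at 0.09, Bcl6 at 0.19 and Foxp1 at 0.22 were near the naive end. Lef1 at 0.36, Foxo1 at 0.41, Satb1 at 0.42 and Sox4 at 0.57 were intermediate. Id3 at -0.74 and Myb at 2.38 lay outside the range, Id3 beyond naive and Myb beyond effector memory. These places rest on single libraries and carry their scaling. Under each of the 4 other scalings the ratios of central memory to naive were lower, and with scaling on ribosomal protein genes Foxo1 and Satb1 became called lower there, by 2.11-fold and 2.16-fold.

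**Figure D4:**
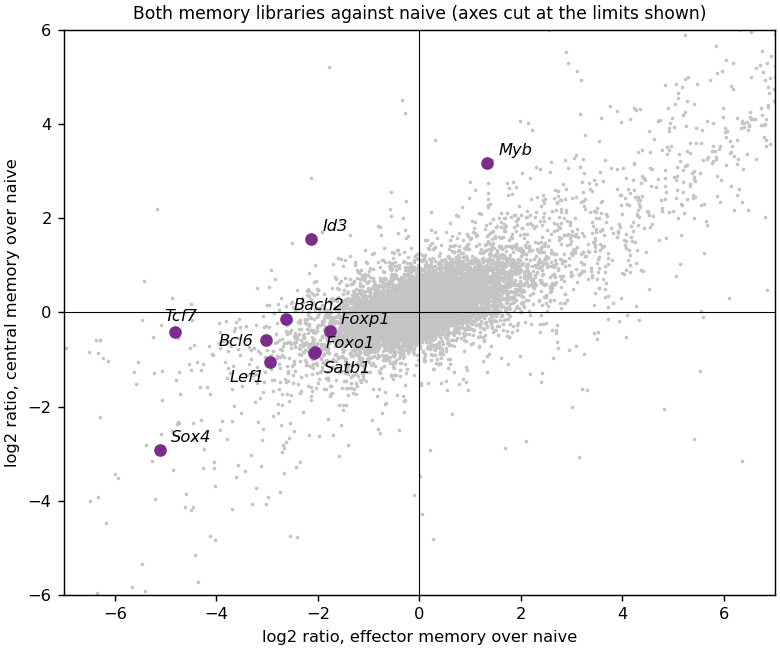
Log2 ratio of effector memory over naive (horizontal) against central memory over naive (vertical) for genes averaging 5 CPM or more (grey), with the 10 factors in purple. Both axes share the naive library, which alone makes the values move together; Tcf7, Bach2 and Bcl6 lie far left but near 0 on the vertical axis, Id3 lies in the upper left and Myb in the upper right.

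By the same distance, the nearest genes to Tcf7 were Ephx1, Frat2 and Palm3, at 0.14 to 0.41 on the log2 scale over the 3 libraries. Ephx1 stood at 2.72 CPM in effector memory, 50.8 CPM in central memory and 73.9 CPM in naive. For Id3 the nearest was Tnfsf8, at a distance of 0.07, with 21.4 CPM in effector memory, 261 CPM in central memory and 91.7 CPM in naive. Nearest to Bach2 was Il27ra at 0.10, nearest to Lef1 was Parp12 at 0.11 and nearest to Bcl6 was Ripor2 at 0.02. The nearest genes to Myb were more distant, with Gdf11 at 0.53, and Sox12, an HMG-box relative of Sox4, came after Foxred2, at 0.62. Sox12 stood at 7.47 CPM in effector memory, 21.3 CPM in central memory and 3.49 CPM in naive, so it was highest where Sox4 was not. The nearest to Sox4 was Cxxc5, at 0.30.

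Genes of the same program were then counted from lists of names. Of 15 naive program genes, 14 were called lower in effector memory against naive and 1 (Cd28) higher, with a median log2 ratio of -4.14 beside 0.04 for all genes. In central memory against naive 4 were called lower and none higher, with a median of -0.72 beside 0.15. Klf2, a FOXO1 target, stood at 7.25 CPM in effector memory, 250.4 CPM in central memory and 512 CPM in naive. Klf2 was 70.5-fold lower (61.9 to 80.6) in effector memory than in naive, beside 4.16-fold for Foxo1 itself. Of 11 other early T cell factors in the table, 7 were called lower in effector memory against naive and none higher (median -1.44 beside 0.04), among them Klf3, 47.8-fold lower (41.6 to 55.3), and Tox, 26.6-fold lower (21.0 to 34.1). In central memory against naive 4 of the 11 were called lower, with Runx1 3.18-fold lower (2.90 to 3.50).

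The cofactors of TCF-1 and LEF-1 showed smaller differences. Of the list of 12 in the table, 4 were called lower in effector memory against naive and none higher (median -0.91 beside 0.04). In central memory against naive 1 was called lower (Bcl9). The list also held the relatives Tcf7l1 and Tcf7l2, which are not cofactors and were below 5 CPM in every library. The Groucho corepressor genes Tle1, Tle3 and Tle4 were 2.40-fold, 3.75-fold and 3.13-fold lower in effector memory than in naive. The fourth, Tle2, ran the other way, at 8.57 CPM in effector memory, 3.10 CPM in central memory and 4.67 CPM in naive. Its 1.83-fold difference between effector memory and naive (1.48 to 2.28) was too small for a call, and it was called higher in effector against central memory, 2.77-fold (2.21 to 3.48). In that comparison 1 cofactor was called higher (Tle2) and 2 lower (Tle4 and Bcl9l), with a median of -0.10 beside -0.08. Bcl9l, a beta-catenin adaptor, was 4.62-fold lower (4.37 to 4.89) in effector than in central memory. Against naive it was 8.025-fold lower (7.60 to 8.48) in effector memory. Ctnnb1, which encodes beta-catenin, stood at 327 CPM in effector memory, 314 CPM in central memory and 211 CPM in naive, with no call. None of the 6 FOXO and FOXP relatives was called in any comparison, and 3 of them were below 5 CPM throughout.

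The counterpart effector factors ran the other way. Of 10, 7 were called higher in effector memory against naive and none lower (median log2 ratio 3.61 beside 0.04), and 5 were called higher in central memory against naive (median 2.30 beside 0.15). Between effector and central memory 4 were called higher (median 0.83 beside -0.08). Bhlhe40 stood at 509 CPM in effector memory, 65.9 CPM in central memory and 1.80 CPM in naive, and Nfil3 at 213, 13.0 and 1.08 CPM. Tbx21, which encodes T-bet, was highest in central memory, at 55.0 CPM in effector memory, 86.3 CPM in central memory and 4.10 CPM in naive. Per kilobase it exceeded Tcf7 by 1.13 times in effector memory, and it was 0.0834 times Tcf7 in central memory and 0.00298 times in naive. Tbx21 was called higher in both memory libraries against naive, but its 1.57-fold difference between effector and central memory (1.48 to 1.66) was too small for a call.

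**Figure D5:**
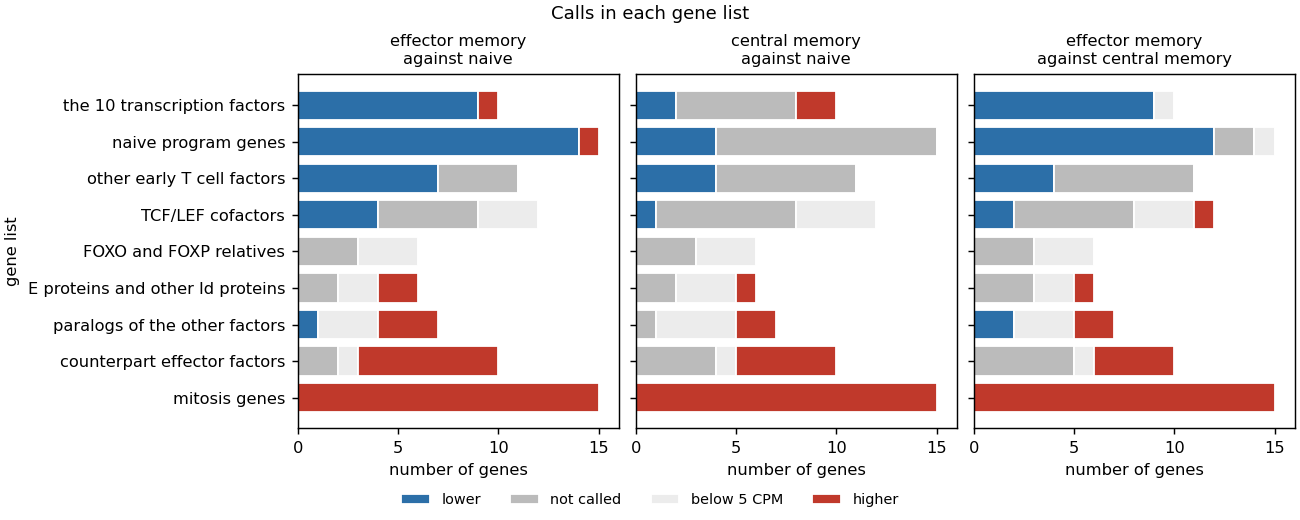
Number of genes called lower, not called, below 5 CPM in both libraries, or called higher, in the 10 factors and 8 other gene lists, for each comparison. The naive program genes are mostly lower in effector memory (14 of 15 against naive) and the counterpart effector factors mostly higher (7 of 10).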

How the data were processed

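The authors deposited 1 table of raw counts per gene symbol, whose columns TN, TCM and TEM were read as naive, central memory and effector memory from their abbreviations. Per the submitters' processing notes, the tools were CASAVA, HISAT2 2.0.5 and featureCounts 1.5.0-p3, with the mm10 build. The sources used here name no annotation, strand setting or handling of multi-mapping reads, and the TruSeq RNA kit named in the labels does not mark strand. Counts were scaled to CPM with edgeR 4.0.16 under R 4.3.3, using TMM factors (0.967 for effector memory, 0.999 for central memory and 1.04 for naive). Ratios carry exact Clopper-Pearson 95% counting intervals, and levels carry exact Poisson 95% intervals. The calling rule was run on the whole table and was tested on simulated data. It is a rule of size: no p-value was computed.

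Lengths and coordinates came from GENCODE M21, in which 98.7% of the 25638 names were found, and promoter windows from RefSeq. Merged exons include rarely used ones, so levels per kilobase depend on the length used. For each factor at least 4-fold apart over the libraries, the 3 genes with the nearest pair of log2 ratios against naive were named. Each list names at most 4 of its called genes per comparison, beside the relatives of the factors. The factors, lists and alternatives were chosen with earlier results of these data known. Alternatives were scaling on 76 ribosomal protein genes, upper quartile factors, size factors of DESeq2 1.42.0, total counts, other minimum levels and ratios, and the longest transcript as length. SciPy 1.17.1, NumPy 2.4.6, pandas 2.3.3 and matplotlib 3.10.9 ran on Python 3.11.15.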

Additional observations from a re-analysis of the deposited data

How the results depend on the processing

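No paired analysis was possible because each group has 1 library, and for the same reason no replicate could be left out. Under the 4 other scalings, every call of the 10 factors in effector memory against naive and in effector memory against central memory kept its direction. In central memory against naive, scaling on ribosomal protein genes gave 4 factors called lower in place of 2 (Foxo1 and Satb1 were added), and moved the split over all genes to 800 higher and 742 lower, beside 1092 and 499. Against TMM, the log2 ratios of all genes shifted in central memory against naive by -0.11 with DESeq2 size factors, -0.12 with upper quartile factors and -0.24 with ribosomal protein genes. In effector memory against naive they shifted by -0.10 with upper quartile factors and -0.11 with ribosomal protein genes, and in effector memory against central memory by 0.14 with ribosomal protein genes.

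For the 10 factors in central memory against naive, a ratio of 1.5 gave 5 lower and a ratio of 4 gave 1 lower and 1 higher, while a minimum of 20 CPM gave 1 lower. In effector memory against naive a ratio of 4 gave 0 higher, and in effector memory against central memory it gave 4 lower. Over all genes in central memory against naive, the counts higher were 544 at 20 CPM, 2020 with no minimum, 2143 at a ratio of 1.5 and 509 at a ratio of 4. The counts lower were 937 at 1 CPM, 286 at 20 CPM, 1540 with no minimum, 1051 at a ratio of 1.5 and 193 at a ratio of 4. In effector memory against naive, 3566 were higher with no minimum and 1133 at a ratio of 4, and 2596 were lower with no minimum, 2649 at a ratio of 1.5 and 524 at a ratio of 4. In effector memory against central memory, 2830 were higher with no minimum, 2396 at a ratio of 1.5 and 635 at a ratio of 4, and 1980 were lower with no minimum, 2528 at a ratio of 1.5 and 289 at a ratio of 4. The cause was not tested beyond the construction of each rule. With longest transcripts, 24 of the 30 levels per kilobase moved outside their counting interval. Depth limits Sox4 in both memory libraries and Bcl6 in effector memory.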
